A study of Mus musculus with 24 samples.

Results

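The epidermal differentiation complex is a cluster of genes for the proteins that build and fill the outer layer of the epidermis. Its members were taken as every gene of the count table whose symbol starts with Sprr, Lce or S100a, together with Flg2, Hrnr, Rptn, Crnn, Ivl and Lor. This gave 57 members of 39017 gene rows, comprising 16 Sprr genes, 20 Lce genes, 15 S100a genes, 4 fused S100-type genes and 2 precursor genes. Of these, 56 lie on mouse chromosome 3 between bases 90511034 and 93564643 of GRCm38. A further 3 genes that meet the rule were not analysed here.

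Keratinocytes that leave the basal layer flatten and replace their membrane by the cornified envelope, a sheet of proteins that transglutaminases cross-link to each other. Loricrin (Lor) and involucrin (Ivl) are its scaffold, the small proline-rich proteins (Sprr) are cross-bridges that are made in larger amounts after injury or inflammation, and the late cornified envelope proteins (Lce) are added last. The fused S100-type proteins (Flg2, Hrnr, Rptn, Crnn) carry a calcium-binding S100 domain joined to long repeats, whereas the S100a genes encode small calcium-binding proteins with roles in signalling, membrane binding and antimicrobial defence.

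Dorsal skin of female C3H/HeJ mice, about 30 weeks old at the end of the study, was sequenced in 24 libraries from 4 groups of 6. Healthy mice had no disease and no treatment, and AA mice had untreated alopecia areata, an autoimmune hair loss in which T cells attack the growing follicle, induced by a skin graft. Systemic JAK1i mice had the same disease and ate Cmpd A, an inhibitor of the kinase JAK1, at 100 mg/kg a day in their food for 4 weeks. The 8w off Tx libraries were taken 8 weeks after that treatment ended. The methods place both sets of libraries in the same mice, although the labels do not say which libraries pair. Skin was taken from live mice in the systemic JAK1i group and at termination in the 8w off Tx group, and the titles place the healthy and AA libraries at 12 weeks and the systemic JAK1i libraries at 4 weeks. Treatment, week and way of sampling therefore cannot be told apart in any comparison with the systemic JAK1i group. The titles of the AA libraries carry the mark Vec12w while their labels give no treatment.

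Each library held from 3444193 to 11233020 counts. Levels are given as CPM, counts relative to the library size after TMM normalization, which compare a gene between libraries but not genes with each other. The tissue is whole skin, in which fewer cells of a type and less RNA per cell cannot be told apart. In 8w off Tx libraries A and E the 9 hair shaft keratin genes summed to 54.9 and 5.51 CPM, against 1336 to 3172 CPM in the other 4 libraries, so counts in comparisons with this group are also given without them. Healthy library B stood high for many members, and results that turn on it are also given without it. Healthy libraries A and E held 323 and 254 CPM of 11 skeletal muscle genes, against 3402 to 19649 CPM in the other 4. Suprabasal keratinocyte genes that define the tissue (Krt1, Krt10, Krt2, Krtdap, Dsg1a, Dsc1) summed to at least 3636 CPM in every library.

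Of the 57 members, 42 passed the filter on low counts and were tested (8 Sprr, 16 Lce, 12 S100a, 4 fused S100-type and 2 precursor genes). Among these, 5 would not have passed without their AA libraries (Sprr2a2, Sprr2g, Sprr2h, Lce3c and Lce3d), which favoured a higher level in AA in advance. Sprr2a2 would also not have passed without its healthy or without its 8w off Tx libraries. The count over the tested members is thus a description, and for these 5 members p-values in comparisons with AA are given only from a fit without the filter. That fit also took in 13 of the 15 members that the filter left out, the other 2 being at 0 in every library. Per transcript length, in the deposited TPM, the most abundant members of healthy skin were Lce1m (mean 307 TPM), Flg2 (281 TPM), S100a6 (155 TPM), Lor (151 TPM) and S100a4 (139 TPM).

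The starts of 5 members that changed between groups are shown with the start of Lce3d, which changed as well. They were picked because the 5 hold, and Lce3d lacks, a pair of short motifs. Each line gives the 250 bases before the RefSeq start in GRCm38.p6, 5′ to 3′ on the strand of the gene, with TGANTCA (the AP-1 motif, bound by Fos and Jun proteins) and TATAAA (the TATA box) in capitals. They lie at chr3:92485882-92486131, reverse strand (Sprr1a), chr3:92438780-92439029, reverse strand (Sprr1b), chr3:92385435-92385684, forward strand (Sprr2h), chr3:93393449-93393698, forward strand (Rptn), chr3:93144539-93144788, forward strand (Crnn) and chr3:92957140-92957389, forward strand (Lce3d).
Sprr1a: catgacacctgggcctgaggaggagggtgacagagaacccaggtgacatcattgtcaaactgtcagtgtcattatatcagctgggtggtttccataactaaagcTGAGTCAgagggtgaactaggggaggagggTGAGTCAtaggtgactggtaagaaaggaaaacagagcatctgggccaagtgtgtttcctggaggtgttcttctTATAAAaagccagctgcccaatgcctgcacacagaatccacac
Sprr1b: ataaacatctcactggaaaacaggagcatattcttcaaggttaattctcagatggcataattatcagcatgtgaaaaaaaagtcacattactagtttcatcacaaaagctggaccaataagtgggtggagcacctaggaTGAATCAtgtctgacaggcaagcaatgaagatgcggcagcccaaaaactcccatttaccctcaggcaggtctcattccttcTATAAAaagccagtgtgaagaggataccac
Sprr2h: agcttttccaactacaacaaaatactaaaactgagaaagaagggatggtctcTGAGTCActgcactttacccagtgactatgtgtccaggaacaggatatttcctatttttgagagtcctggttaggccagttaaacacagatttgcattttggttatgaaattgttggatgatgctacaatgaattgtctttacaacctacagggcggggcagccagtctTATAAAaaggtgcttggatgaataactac
Rptn: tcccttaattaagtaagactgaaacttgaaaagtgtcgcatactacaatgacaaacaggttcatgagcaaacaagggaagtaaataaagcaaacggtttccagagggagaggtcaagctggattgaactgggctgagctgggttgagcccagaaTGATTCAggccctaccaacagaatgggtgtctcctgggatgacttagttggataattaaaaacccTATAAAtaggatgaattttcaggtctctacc
Crnn: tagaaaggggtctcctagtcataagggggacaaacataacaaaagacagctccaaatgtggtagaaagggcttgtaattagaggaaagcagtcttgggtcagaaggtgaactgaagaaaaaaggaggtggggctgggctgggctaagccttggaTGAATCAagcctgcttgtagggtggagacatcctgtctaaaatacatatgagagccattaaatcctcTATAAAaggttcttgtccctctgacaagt
Lce3d: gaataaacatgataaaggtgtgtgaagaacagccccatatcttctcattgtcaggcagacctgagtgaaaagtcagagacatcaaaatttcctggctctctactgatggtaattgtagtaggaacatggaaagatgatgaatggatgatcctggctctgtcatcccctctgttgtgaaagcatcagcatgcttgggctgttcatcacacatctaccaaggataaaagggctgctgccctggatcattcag

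A RefSeq promoter sequence, 250 bases before to 50 bases after the start, was matched by symbol to 50 of the 57 members. Searched on both strands, TGANTCA stood in 15 of the 50 (30%) and in 7.81% of all 32851 promoter sequences. Each member counts with a single sequence, that of the start nearest its annotated start, whereas the full set can hold several starts of a gene. By subfamily it was in 9 of 14 Sprr, 0 of 19 Lce, 1 of 11 S100a, 3 of 4 fused S100-type and 2 of 2 precursor promoters. TATAAA stood in 21 of the 50 (42%) against 13.6% of all promoters, with 10 of 14 among Sprr and 3 of 19 among Lce genes. Motifs of interferon signalling were not more frequent in the members, as TTCNNNGAA (the GAS motif of STAT proteins) was in 8% of members and 8.3% of all promoters, and the ISRE (GAAA, 2 bases of any kind, GAAA) in 0 of 50 members and 3.44% of all promoters. The AP-1 motif stood in 28% of the 25 promoters of tested members called lower in systemic JAK1i than in AA skin, and in 32% of the 25 others. Members that the filter left out were counted among the others where they had a promoter. Of the members left out, 12 were lower in the fit without the filter. These shares therefore do not separate members that fell from members that did not. A match is a run of letters and not a shown binding site.

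The question of the first comparison is how diseased skin differs from healthy skin. In AA skin 22 of the 42 tested members were higher than in healthy skin and 5 were lower, while 20.9% of all 16248 genes tested were higher and 19.3% lower (edgeR's quasi-likelihood test, adjusted p below 0.05). The median log2 fold change was 1.16 over the members and 0.00 over all genes tested. Single fold changes are given ± their standard error, with the adjusted p of this test. The change was uneven between subfamilies, with 7 of 8 Sprr, 7 of 16 Lce, 5 of 12 S100a, 2 of 4 fused S100-type and 1 of 2 precursor genes higher. The Sprr and Lce counts include the members that would not have passed the filter without their AA libraries. Lower were Lce1m, Flg2, S100a4, S100a10 and S100a13. With stricter thresholds, an adjusted p below 0.001 and a change above 4-fold, 7 members were higher (S100a3, Crnn, S100a7a, Rptn, Sprr1a, Sprr2a3 and Lce3d) and 0 lower, against 2.51% and 0.966% of all genes. Healthy and AA libraries did not overlap for 5 members of 42, as for 14.3% of all genes.

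Without healthy library B, 27 members were higher and 5 lower, with 22.9% and 20.7% of all genes. Without healthy libraries A and E the counts were 15 and 5, with 17.1% and 16.5% of all genes.

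The second comparison sets treated AA skin, from live mice at 4 weeks, against untreated AA skin at 12 weeks. Systemic JAK1i skin had 28 members lower and 4 higher than AA skin, against 24.8% and 22.9% of all genes. The median log2 fold change was -1.75 over the members and -0.01 over all genes. All 8 tested Sprr genes fell, with 9 of 16 Lce, 7 of 12 S100a, 3 of 4 fused S100-type genes and 1 of 2 precursor genes. Among them, Sprr2a2, Sprr2g, Sprr2h, Lce3c and Lce3d would not have passed the filter without their AA libraries, so their fall was favoured in advance. The members that rose were Lce1m (log2 fold change 0.93 ± 0.24, adjusted p = 0.0035), Flg2, S100a13 and S100a10. For 20 of 42 members the libraries of both groups did not overlap, as for 26.9% of all genes.

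Against healthy skin, 0 of 42 members passed the test in systemic JAK1i skin, where 0.511% of all genes were higher and 0.535% lower. The unadjusted p was below 0.05 for 15 of 42 members and for 16.9% of all genes. Only S100a11 had libraries that did not overlap between these groups, with 28.6 to 39.4 CPM in treated and 41.0 to 59.0 CPM in healthy libraries, as for 2.55% of all genes. With DESeq2 4 members were lower, Sprr2a3, Sprr2d, Sprr1b and Lce3c, against 3.05% of all genes in either direction. This comparison sets the treated libraries against a healthy group that includes library B. Without that library the members' median log2 fold change went from -0.43 to -0.05.

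**Figure D1:**
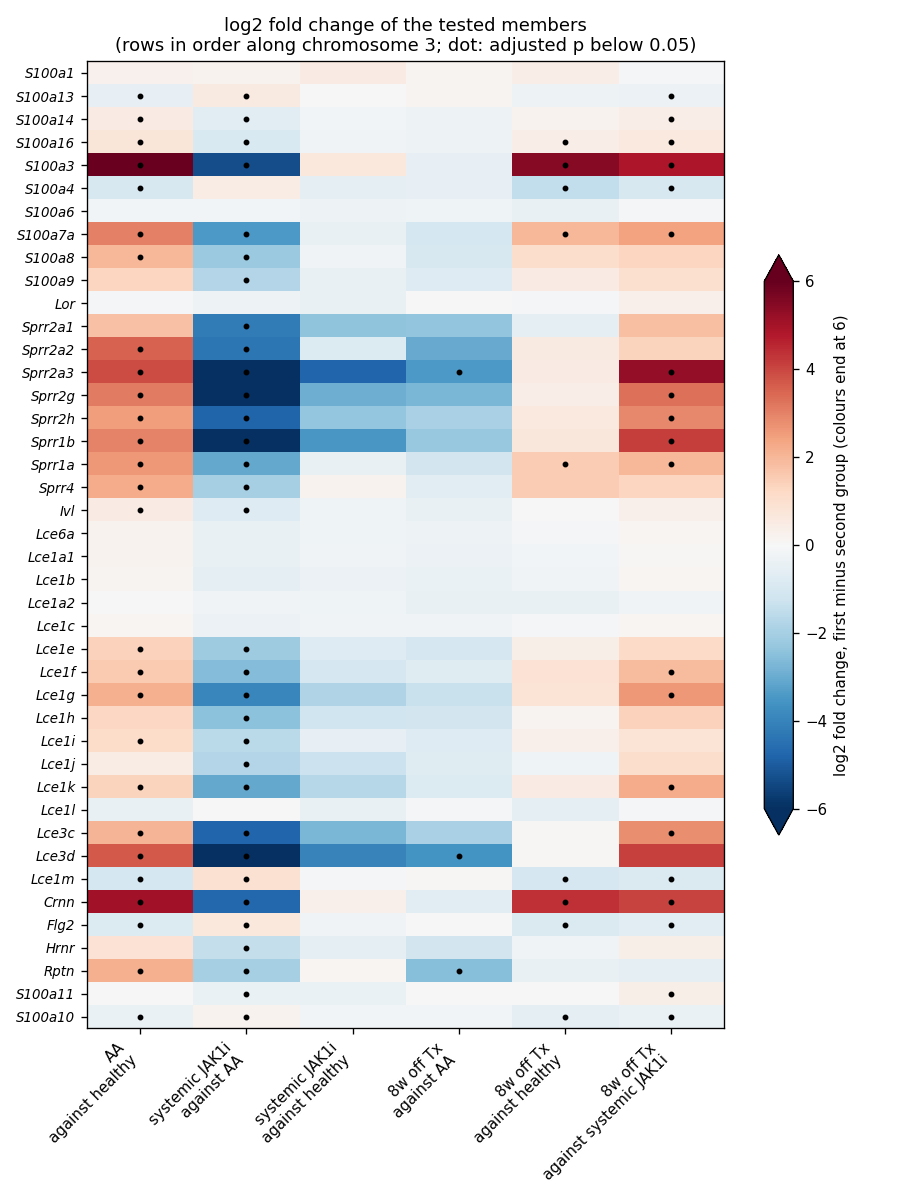
log2 fold change of the 42 tested members (rows, in order along chromosome 3) in the 6 comparisons between groups (columns), with a dot where the adjusted p is below 0.05. The column of AA against healthy holds 22 members higher and 5 lower, and the column of systemic JAK1i against AA 28 lower and 4 higher.

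The Sprr genes form the first subfamily. Sprr1a, the most abundant of them in CPM, ranged from 29 to 175 CPM (median 36.7) in healthy, from 139 to 601 (365) in AA, from 17.8 to 85.9 (36.4) in systemic JAK1i and from 85.7 to 323 (141) in 8w off Tx libraries. Healthy libraries other than B lay below every AA library. Its level rose in AA skin (log2 fold change 2.62 ± 0.45, adjusted p = 0.00015) and lower again in systemic JAK1i skin (log2 fold change -3.06 ± 0.45, adjusted p = 2.7e-05). It was the only Sprr gene that was higher in 8w off Tx than in healthy skin in the fit of all libraries (log2 fold change 1.54 ± 0.45, adjusted p = 0.013), and without healthy libraries A and E that call was lost (1.28, adjusted p = 0.081).

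Sprr1b, a close relative of Sprr1a, was nearly absent from most healthy skin, and ranged from 0.171 to 39.9 CPM (median 0.693) in healthy, from 21 to 97.6 (46.7) in AA, from 0.142 to 2.64 (0.285) in systemic JAK1i and from 4.67 to 19 (10.9) in 8w off Tx libraries. Apart from library B at 39.9 CPM, no healthy library exceeded 0.99 CPM, and the AA and systemic JAK1i libraries did not overlap. Against healthy skin the AA value was log2 fold change 2.96 ± 0.77, adjusted p = 0.0046, and without healthy library B it was 6.56, adjusted p = 1.1e-07. In systemic JAK1i against AA skin the value was log2 fold change -6.44 ± 1.22, adjusted p = 3.4e-05.

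Sprr2a3 belongs to the Sprr2 genes, which encode short cross-bridging proteins. Its levels ranged from 0.342 to 26.1 CPM (median 0.778) in healthy, from 3.41 to 132 (86.6) in AA, from 0 to 0.494 (0.119) in systemic JAK1i and from 2.33 to 16.8 (5.05) in 8w off Tx libraries. The treated libraries lay below all AA libraries, and healthy library B, at 26.1 CPM, lay among the AA values. It rose in AA skin (log2 fold change 3.90 ± 0.82, adjusted p = 0.00085) and was lower in systemic JAK1i than in AA skin (log2 fold change -8.68 ± 2.20, adjusted p = 1.2e-05). About 47% of its 76-base windows also occur in Sprr2a1 or Sprr2a2, and 94.2% and 94.6% of the windows of those genes occur in others. The annotated spans of Sprr2a1 and Sprr2a2 also overlap on the same strand. The split of reads between these 3 genes is therefore uncertain. Sprr2a1 was not called in AA against healthy skin (log2 fold change 1.78 ± 0.78, adjusted p = 0.077). The order of the 3 genes depended on the measure. By mean CPM over AA libraries, Sprr2a3 (74.6) and Sprr2a1 (43.4) stood above Sprr2a2 (8.14). By mean deposited TPM over the same libraries, Sprr2a2 (735) stood above Sprr2a3 (32.3) and Sprr2a1 (5.27). Healthy libraries averaged 74.5 TPM of Sprr2a2, and treated ones 4.55 TPM. The cause of this difference between measures was not tested.

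Sprr2h ranged from 0.142 to 6.83 CPM (median 0.419) in healthy, from 3.95 to 12.6 (8.57) in AA, from 0 to 0.494 (0.387) in systemic JAK1i and from 1.22 to 3.88 (2.08) in 8w off Tx libraries. Its AA and systemic JAK1i libraries did not overlap, and library B was again the highest healthy one. In the fit without the filter its log2 fold change was 2.5, adjusted p = 0.0018 in AA against healthy skin and -4.80, adjusted p = 1.1e-05 in systemic JAK1i against AA skin. Sprr2g had 171 counts in the 6 AA libraries and 3 in the 6 treated ones, a ratio of 80.5 after scaling by library size, with a 95% interval of 27.1 to 394 that covers counting error only.

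Sprr4, which lies at the far end of the Sprr cluster, ranged from 7.46 to 52 CPM (median 12.7) in healthy, from 15 to 303 (42.3) in AA, from 8.52 to 51.8 (16.7) in systemic JAK1i and from 30.3 to 125 (38.8) in 8w off Tx libraries. AA library D, at 303 CPM, stood far above the others. Its calls in AA against healthy (log2 fold change 2.22 ± 0.64, adjusted p = 0.0098) and in systemic JAK1i against AA (log2 fold change -1.99 ± 0.63, adjusted p = 0.014) rested on that library, and without it became 1.20, adjusted p = 0.095 and -0.97, adjusted p = 0.16.

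The other Sprr rows had too few counts to pass the filter. Summed over the libraries of the healthy, AA, systemic JAK1i and 8w off Tx groups in this order, Sprr2d gave 22, 74, 1 and 18 counts. Sprr2e gave 9, 47, 1 and 10 counts, and Sprr2f 8, 30, 0 and 8. Sprr2b gave 1, 25, 0 and 0, Sprr2k 0, 19, 0 and 1, Sprr2i 5, 17, 0 and 3, and the pseudogene Sprr2j-ps 1, 11, 0 and 3. Each of these was most frequent in AA libraries and had 1 count or none in treated ones. Without the filter, Sprr2b, Sprr2d, Sprr2e, Sprr2j-ps and Sprr2k were higher in AA than in healthy skin, all 7 were lower in systemic JAK1i than in AA skin, and Sprr2d was higher in 8w off Tx than in systemic JAK1i skin. In that fit 10.5%, 13.3% and 10.2% of all genes were called in these directions. Sprr2b was thus at least 11.8-fold lower in treated than in AA skin, with the limit set by 3 counts over the group. Sprr3, a gene of oral and other mucosal epithelia, was at 0 in every library.

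**Figure D2:**
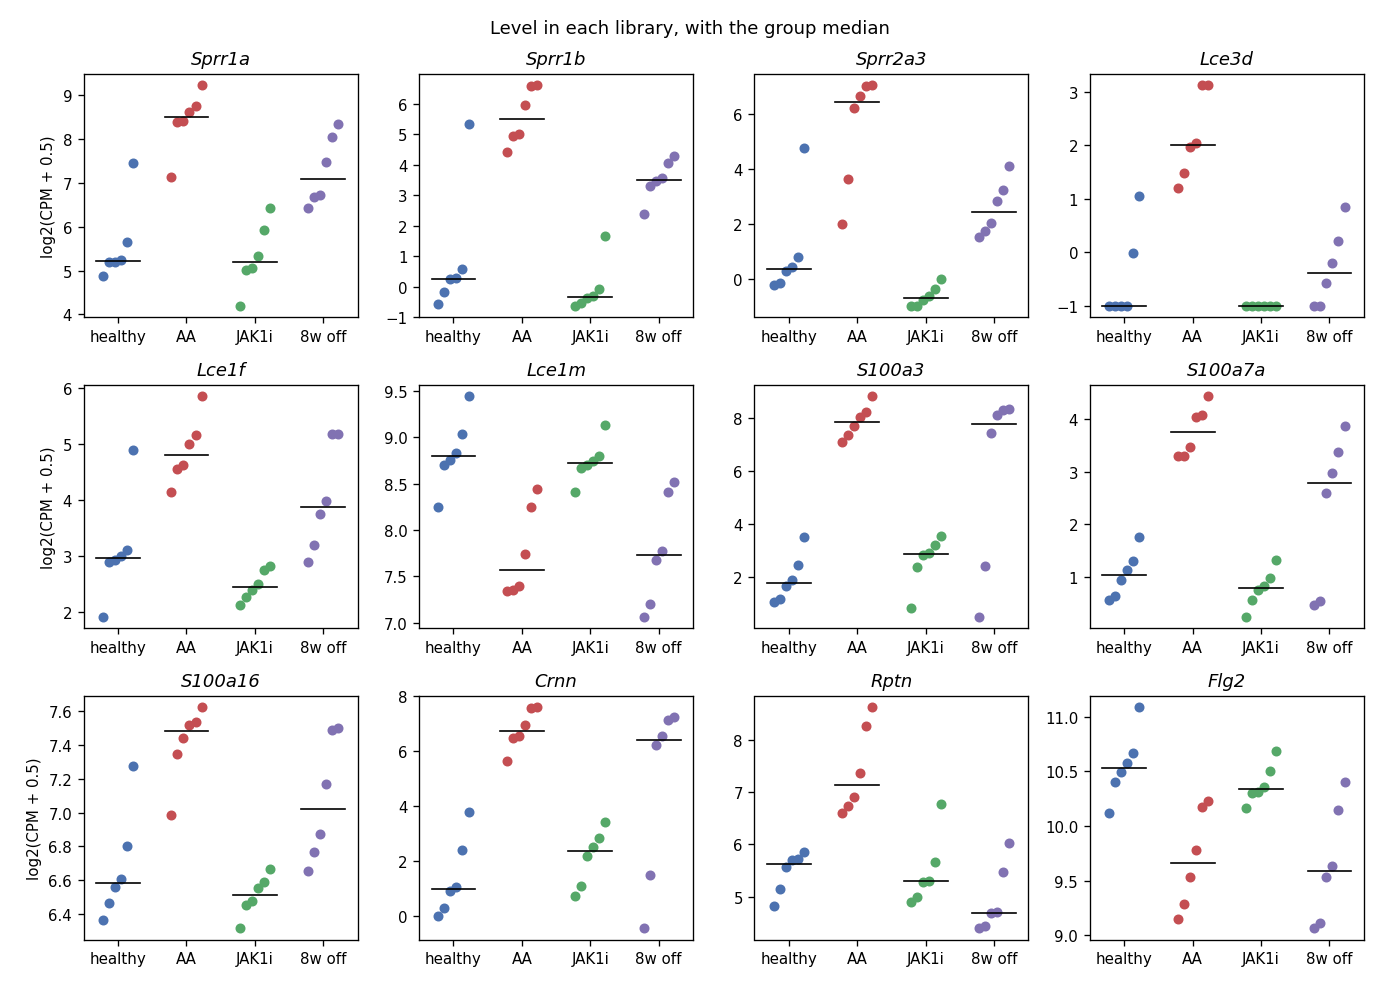
Level of 12 members in each library as log2(CPM + 0.5) (vertical axis) for the 4 groups (horizontal axis), with 1 point per library and a black line at the group median. Sprr1a, Sprr1b, Sprr2a3, Lce3d, Lce1f, S100a3, S100a7a, S100a16, Crnn and Rptn have their highest median in AA libraries, whereas Lce1m and Flg2 have their highest in healthy libraries.

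Stress keratinocyte genes moved with the Sprr genes in the comparisons of AA with healthy and with systemic JAK1i skin. All 6 tested of the 8 on that list (Krt6a, Krt6b, Krt16, Krt17, Stfa1, Stfa2, Stfa3 and Serpinb3a) were higher in AA than in healthy skin and lower in systemic JAK1i than in AA skin. Their sum was 867 to 1588 CPM in healthy, 2808 to 6394 CPM in AA, 767 to 1031 CPM in systemic JAK1i and 1519 to 3738 CPM in 8w off Tx libraries, with healthy library B the highest of its group. None of the 8 was at 0 throughout. In 8w off Tx against healthy skin 5 of the 6 tested were higher, but only 1 of 8 Sprr genes, with 16.9% of all genes. Without healthy library B, 6 of 8 Sprr genes were higher there, with 19.6% of all genes. Their part in the Sprr result was not tested.

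Lce genes are arranged in groups along the chromosome, and the members of neighbouring groups did not move alike. This grouping by position was chosen after the values were seen. Lce6a, Lce1a1, Lce1b, Lce1a2 and Lce1c passed the test in none of the 6 comparisons of the fit of all libraries. Lce1a1 ranged from 59.6 to 187 CPM (median 78.8) in healthy, from 73.6 to 188 (98.1) in AA, from 64.9 to 100.4 (82.5) in systemic JAK1i and from 42.9 to 156 (64.9) in 8w off Tx libraries, with groups that overlap throughout. Lce1a2 ranged from 56.6 to 189.6 CPM (median 89.2) in healthy, from 62.7 to 152 (94.7) in AA, from 67.7 to 115 (85.7) in systemic JAK1i and from 38.3 to 124 (63.3) in 8w off Tx libraries, also with overlap. Lce1c ranged from 37.9 to 144 CPM (median 61.2) in healthy, from 50.0 to 122 (74.6) in AA, from 49.1 to 78.4 (62.8) in systemic JAK1i and from 37.9 to 122 (52.7) in 8w off Tx libraries. In AA against healthy skin the log2 fold changes of these 3 genes were 0.21, adjusted p = 0.61, -0.03, adjusted p = 0.95 and 0.12, adjusted p = 0.78.

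Further along, Lce1e, Lce1f, Lce1g, Lce1h, Lce1i, Lce1j and Lce1k were each lower in systemic JAK1i than in AA skin, by log2 fold changes from -3.93 to -1.60. Of these 7, all but Lce1h (1.24, adjusted p = 0.051) and Lce1j (0.46, adjusted p = 0.49) were also higher in AA than in healthy skin. Lce1f ranged from 3.25 to 29.1 CPM (median 7.28) in healthy, from 17.1 to 57.4 (27.8) in AA, from 3.84 to 6.60 (4.97) in systemic JAK1i and from 6.92 to 35.9 (14.2) in 8w off Tx libraries. Its AA and systemic JAK1i libraries did not overlap. The level rose in AA skin (log2 fold change 1.59 ± 0.43, adjusted p = 0.0059) and was lower in systemic JAK1i than in AA skin (log2 fold change -2.61 ± 0.45, adjusted p = 8.7e-05). At most 13.4% of the 76-base windows of any Lce1 gene occurred in another gene. Without healthy libraries A and E, Lce1e, Lce1g, Lce1i and Lce1k were no longer called in AA against healthy skin, nor were Lce3c, Ivl and Sprr4.

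The Lce3 genes, whose human relatives are known for their induction when the barrier is broken, had low levels in all groups. Their group means were highest in AA skin, but Lce3c also stood at 5.60 CPM in healthy library B. Lce3d ranged from 0 to 1.58 CPM (median 0) in healthy, from 1.80 to 8.23 (3.52) in AA, from 0 to 0 (0) in systemic JAK1i and from 0 to 1.29 (0.273) in 8w off Tx libraries. It had 128 counts in the AA and 0 in the systemic JAK1i libraries, so that it was at least 60.3-fold lower in systemic JAK1i skin. In the fit without the filter its log2 fold change in AA against healthy skin was 3.65, adjusted p = 0.00098. Lce3c ranged from 0 to 5.60 CPM (median 0.537) in healthy, from 2.97 to 10.8 (5.19) in AA, from 0 to 0.408 (0.181) in systemic JAK1i and from 0 to 3.09 (1.54) in 8w off Tx libraries. The fit without the filter gave a log2 fold change of 2.01, adjusted p = 0.016 in AA against healthy skin and of -4.74, adjusted p = 4.1e-05 in systemic JAK1i against AA skin. From 27.8% to 45.5% of the 76-base windows of Lce3c, Lce3d, Lce3e and Lce3f occur in other genes, chiefly in each other, which makes the split between them uncertain.

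The Lce3 genes that the filter left out had few counts, with most of them in AA libraries. In the same order of groups, Lce3a gave 7, 27, 0 and 5 counts. Lce3b gave 6, 44, 0 and 3, Lce3e 6, 41, 0 and 4, and Lce3f 3, 29, 0 and 5. None of the 5 Lce3 genes other than Lce3c had a count in any treated library. Without the filter Lce3b, Lce3e and Lce3f were higher in AA than in healthy skin, and all 4 were lower in systemic JAK1i than in AA skin.

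Lce1m, the last Lce gene of the cluster and the most abundant member per length in healthy skin, moved the other way. It ranged from 303 to 697 CPM (median 444) in healthy, from 162 to 348 (190.5) in AA, from 339 to 561 (421) in systemic JAK1i and from 133 to 365 (211) in 8w off Tx libraries. The values of AA and 8w off Tx libraries were mostly below those of healthy and treated ones. It was lower in AA than in healthy skin (log2 fold change -1.06 ± 0.24, adjusted p = 0.0015), higher in systemic JAK1i than in AA skin, and lower again in 8w off Tx skin than in healthy skin (log2 fold change -1.01 ± 0.24, adjusted p = 0.0032) and than after 4 weeks of treatment (log2 fold change -0.88 ± 0.24, adjusted p = 0.0072). Lce1l passed the test in none of the 6 comparisons.

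**Figure D3:**
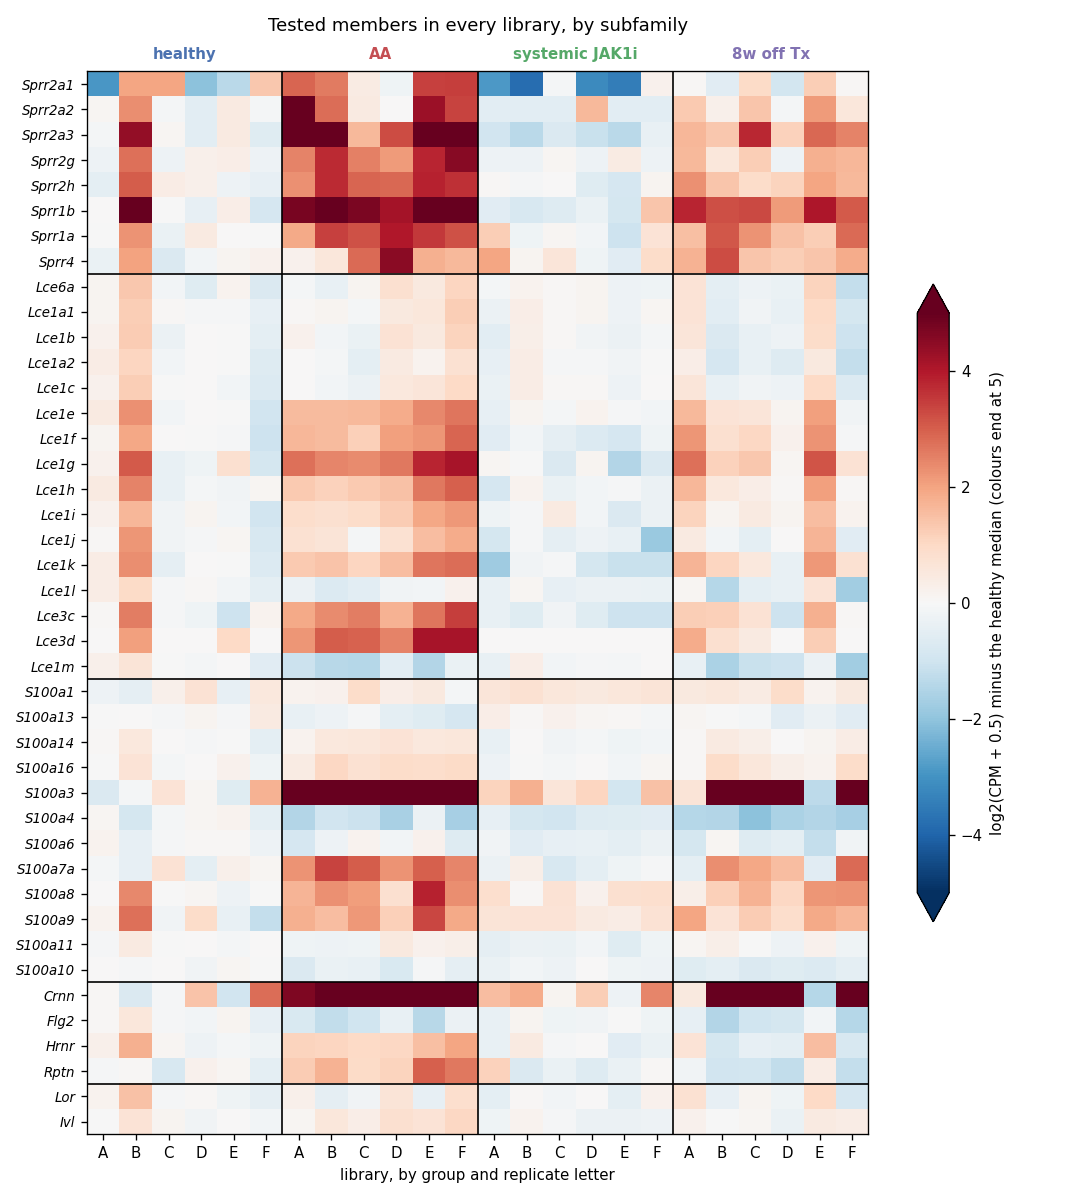
Level of the 42 tested members (rows, by subfamily) in each of the 24 libraries (columns, by group and replicate letter) as log2(CPM + 0.5) minus the median of the healthy libraries. The Sprr and Lce3 rows have their highest group median in AA libraries, though for several of them some healthy or 8w off Tx libraries lie above some AA libraries. The S100a3 and Crnn rows are low in 8w off Tx libraries A and E, at 4.85 and 0.88 CPM for S100a3.

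Among S100a genes, S100a3 had the largest fold change of the tested S100a members between AA and healthy skin. S100a3 encodes a protein of the hair cuticle. It ranged from 1.56 to 10.8 CPM (median 2.89) in healthy, from 138 to 457 (234) in AA, from 1.28 to 11 (6.70) in systemic JAK1i and from 0.881 to 325 (226) in 8w off Tx libraries. No AA library overlapped the healthy ones, whose highest value, 10.8 CPM, was in library F. It was higher in AA than in healthy skin (log2 fold change 5.92 ± 0.83, adjusted p = 2.0e-05) and lower in systemic JAK1i than in AA skin (log2 fold change -5.31 ± 0.75, adjusted p = 2.6e-05). In 8w off Tx skin it was again above healthy (log2 fold change 5.45 ± 0.83, adjusted p = 7.9e-05), and libraries A and E, at 4.85 and 0.88 CPM, were the exceptions among values of 173 to 325 CPM. Without those libraries the value against healthy skin was 6.02, adjusted p = 2.5e-08. Its annotated span overlaps S100a2 and Gm42674 on the same strand.

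Hair follicle genes moved with S100a3 and Crnn. All 9 hair shaft, 7 inner root sheath and 3 hair cuticle genes tested were higher in AA than in healthy skin, lower in systemic JAK1i than in AA skin and higher in 8w off Tx than in healthy skin. The hair shaft genes summed to 0.35 to 145 CPM in healthy, 934 to 4129 CPM in AA and 1.99 to 97.6 CPM in systemic JAK1i libraries, and none was at 0 throughout. Inner root sheath genes summed to 12.1 to 693 CPM in healthy and 5845 to 17523 CPM in AA libraries. Healthy library F was the highest of its group for both sums, for S100a3 and for Crnn. The part of these genes in the S100a3 and Crnn results was not tested.

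S100a7a, a relative of the antimicrobial protein psoriasin, ranged from 0.985 to 2.88 CPM (median 1.56) in healthy, from 9.36 to 21.2 (13.3) in AA, from 0.679 to 2.02 (1.24) in systemic JAK1i and from 0.881 to 14 (6.45) in 8w off Tx libraries. The AA libraries lay above all healthy and treated ones. It was higher in AA than in healthy skin (log2 fold change 3.03 ± 0.47, adjusted p = 2.4e-05) and lower in systemic JAK1i than in AA skin (log2 fold change -3.46 ± 0.47, adjusted p = 4.8e-06). It was also higher in 8w off Tx than in healthy skin (log2 fold change 1.98 ± 0.48, adjusted p = 0.0026). This rise was not shared by 8w off Tx libraries A and E. They held 0.97 and 0.88 CPM, below every healthy library, against 5.56 to 14 CPM in the others. S100a3, Crnn and the hair shaft genes were low in the same libraries, and the part of hair follicle genes in the S100a7a result was not tested. Without libraries A and E the log2 fold change against healthy skin was 2.43, adjusted p = 8.9e-06.

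S100a8 and S100a9 form calprotectin, which neutrophils and stressed keratinocytes make. S100a8 was higher in AA than in healthy skin (log2 fold change 1.99 ± 0.57, adjusted p = 0.0068) and lower in systemic JAK1i than in AA skin (log2 fold change -2.21 ± 0.56, adjusted p = 0.0023). S100a9 did not pass the test against healthy skin (log2 fold change 1.28 ± 0.52, adjusted p = 0.054), where library B held 12.4 CPM, and passed it without that library (2.44, adjusted p = 9.1e-05). In counts, the mean of S100a9 was 8.13 CPM in AA and 2.41 CPM in systemic JAK1i libraries. In the deposited TPM it went the other way, with 12.9 TPM in AA and 23.7 TPM in systemic JAK1i libraries. The cause of this difference was not tested. Of 10 neutrophil genes 2 were tested, Csf3r and Cxcr2, and both were higher in AA than in healthy skin. The sum of the 10 was 5.12 to 18.9 CPM in healthy and 16.2 to 37.5 CPM in AA libraries, Ly6g was at 0 in every library and Elane at 0 in every AA library. Their part in the S100a8 result was not tested.

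S100a14 and S100a16, which are expressed in epithelia, changed by less. S100a14 ranged from 128 to 262 CPM (median 182) in healthy, from 203 to 291 (266) in AA, from 141 to 185 (164) in systemic JAK1i and from 183 to 249 (210.3) in 8w off Tx libraries, and S100a16 ranged from 82 to 154 CPM (median 95.4) in healthy, from 126 to 196 (178) in AA, from 79.2 to 101 (91.1) in systemic JAK1i and from 101 to 181 (130.0) in 8w off Tx libraries. For both genes the treated libraries lay below all AA libraries. S100a16 was higher in AA than in healthy skin (log2 fold change 0.71 ± 0.15, adjusted p = 0.00081) and lower in systemic JAK1i than in AA skin (log2 fold change -0.91 ± 0.15, adjusted p = 5.8e-05). The values of S100a14 were 0.48, adjusted p = 0.003 in AA against healthy skin and -0.66, adjusted p = 0.00011 in systemic JAK1i against AA skin.

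S100a4, S100a10 and S100a13 went the other way, and S100a6 was not called. S100a4, which many mesenchymal cells express, ranged from 57.9 to 123 CPM (median 108) in healthy, from 33.5 to 87.2 (45.2) in AA, from 54.6 to 81.3 (69.3) in systemic JAK1i and from 25.5 to 39.8 (36.9) in 8w off Tx libraries. It was lower in AA than in healthy skin (log2 fold change -0.97 ± 0.20, adjusted p = 0.0006) and did not pass the test in systemic JAK1i against AA skin (log2 fold change 0.43 ± 0.20, adjusted p = 0.081). About 53.7% of its 76-base windows lie in the overlapping gene Gm42674, so its counts are uncertain. S100a10, the partner of annexin A2, was lower in AA than in healthy skin (log2 fold change -0.41 ± 0.09, adjusted p = 0.0014) and higher in systemic JAK1i than in AA skin (log2 fold change 0.23 ± 0.09, adjusted p = 0.043). S100a6 ranged from 146 to 217 CPM (median 192) in healthy, from 108 to 223 (168) in AA, from 128 to 171 (146) in systemic JAK1i and from 85.1 to 207 (130.2) in 8w off Tx libraries, with overlap between all groups (-0.14, adjusted p = 0.57 in AA against healthy skin). Of 7 genes for S100 partners 3 were lower in AA than in healthy skin and 0 higher, among them Anxa2 (-0.50) and Ahnak (-0.41).

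The remaining S100a members were S100a1, which passed the test in no comparison, S100a11, which was lower in systemic JAK1i than in AA skin (log2 fold change -0.41 ± 0.13, adjusted p = 0.015), and 3 rows that the filter left out. S100a2 gave 1, 22, 1 and 4 counts in the order of groups used above, and without the filter it was higher in AA than in healthy skin and lower in systemic JAK1i than in AA skin. S100a5 gave 1, 3, 0 and 4 counts. The pseudogene S100a11-ps was at 0 in every library.

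**Figure D4:**
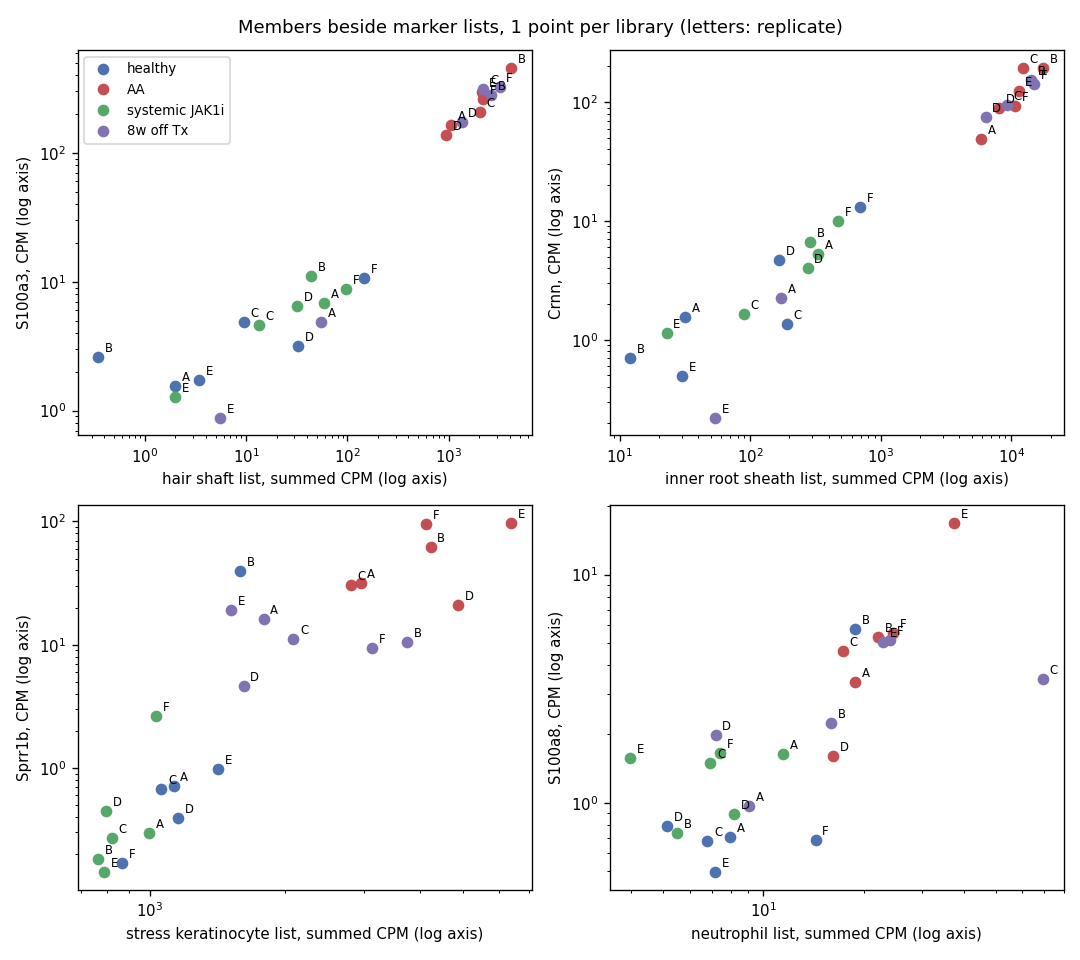
Level of S100a3, Crnn, Sprr1b and S100a8 (vertical axes, CPM, log scale) against the summed CPM of the hair shaft, inner root sheath, stress keratinocyte and neutrophil lists (horizontal axes, log scale), with 1 lettered point per library coloured by group. The 8w off Tx libraries A and E lie among healthy and systemic JAK1i libraries for S100a3 (4.85 and 0.88 CPM) and Crnn (2.26 and 0.22 CPM), and healthy library B lies apart from its group for Sprr1b (39.9 CPM).

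Fused S100-type genes divided by direction. Crnn (cornulin) ranged from 0.494 to 13.2 CPM (median 1.46) in healthy, from 49.4 to 194 (109) in AA, from 1.14 to 10.1 (4.63) in systemic JAK1i and from 0.22 to 153 (84.4) in 8w off Tx libraries. The AA libraries lay above all healthy and all treated ones. It was higher in AA than in healthy skin (log2 fold change 5.04 ± 0.87, adjusted p = 1.0e-04) and lower in systemic JAK1i than in AA skin (log2 fold change -4.73 ± 0.80, adjusted p = 9.6e-05). It was also higher in 8w off Tx than in healthy skin (log2 fold change 4.39 ± 0.87, adjusted p = 0.00055), with libraries A and E at 2.26 and 0.22 CPM against 74.8 to 153 CPM in the others. Without them the last value was 4.94, adjusted p = 2.2e-06.

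Rptn (repetin) ranged from 27.6 to 57 CPM (median 48.9) in healthy, from 96.3 to 392 (142) in AA, from 29.1 to 108 (38.5) in systemic JAK1i and from 20.5 to 64.1 (25.4) in 8w off Tx libraries. No AA library overlapped the healthy or the 8w off Tx libraries. It was higher in AA than in healthy skin (log2 fold change 2.14 ± 0.37, adjusted p = 0.00014) and lower in systemic JAK1i than in AA skin (log2 fold change -2.0 ± 0.37, adjusted p = 0.00019). Unlike S100a3 and Crnn it was lower in 8w off Tx than in AA skin (log2 fold change -2.58 ± 0.38, adjusted p = 0.0012), and against healthy skin its value was -0.44, adjusted p = 0.4. The contrast between these genes was not itself tested. Rptn and Hrnr overlap Gm37245 on the other strand, and the strand setting of the counting is not given in the sources used here. Rptn also overlaps Gm37857 on the same strand.

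Hrnr (hornerin) ranged from 232 to 943 CPM (median 277) in healthy, from 559 to 1097 (589) in AA, from 187 to 379 (244) in systemic JAK1i and from 149.6 to 807 (203) in 8w off Tx libraries. Healthy library B, at 943 CPM, lay among the AA values, and the treated libraries lay below all of them. It did not pass the test in AA against healthy skin (log2 fold change 0.86 ± 0.39, adjusted p = 0.081) and passed it without library B (1.36, adjusted p = 0.0031). In systemic JAK1i skin it was lower than in AA skin (log2 fold change -1.43 ± 0.39, adjusted p = 0.0048). Flg2 (filaggrin-2), which takes part in filling the cornified cell, ranged from 1110.1 to 2176 CPM (median 1484) in healthy, from 566 to 1200.2 (811) in AA, from 1148 to 1645 (1293) in systemic JAK1i and from 534 to 1354 (768) in 8w off Tx libraries. It was lower in AA than in healthy skin (log2 fold change -0.84 ± 0.22, adjusted p = 0.0041), higher in systemic JAK1i than in AA skin (log2 fold change 0.65 ± 0.22, adjusted p = 0.019) and lower in 8w off Tx than in healthy skin (log2 fold change -0.85 ± 0.22, adjusted p = 0.0048).

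Of the precursors, Lor ranged from 308 to 1156 CPM (median 421) in healthy, from 308 to 744 (439) in AA, from 296 to 491 (407) in systemic JAK1i and from 235 to 841 (414) in 8w off Tx libraries and passed the test in no comparison (-0.11, adjusted p = 0.81 in AA against healthy skin). Ivl ranged from 98.1 to 182 CPM (median 112) in healthy, from 120.4 to 234 (174) in AA, from 90.5 to 127 (95.9) in systemic JAK1i and from 89.5 to 155 (126) in 8w off Tx libraries, and was higher in AA than in healthy skin (log2 fold change 0.50 ± 0.16, adjusted p = 0.015) and lower in systemic JAK1i than in AA skin (log2 fold change -0.77 ± 0.16, adjusted p = 0.00049).

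The last 3 comparisons concern skin 8 weeks after treatment. Against AA skin, 3 members were lower and 0 higher (Rptn, Lce3d at -3.59, adjusted p = 0.041 without the filter, and Sprr2a3 at -3.43, adjusted p = 0.038), while 0.64% of all genes were lower and 0.726% higher. The log2 fold change was below 0 for 38 of 42 members, with a median of -0.70 over the members and -0.01 over all genes. Without healthy library B, whose spread the fit shares, 7 members were lower against 1.37% of all genes, with Sprr2g, Sprr2h, Sprr1b and Lce3c added. Without 8w off Tx libraries A and E, Hrnr was lower (-1.97, adjusted p = 0.0086) and Sprr2a3 was no longer called (-3.39, adjusted p = 0.12). The libraries of both groups did not overlap for 5 of 42 members (Sprr2g, Sprr2h, Sprr1b, Lce3d and Rptn), as for 1.28% of all genes. Sprr2g, Sprr2h, Lce3c and Lce3d passed the filter only through their AA libraries. Calls and lack of overlap of these genes against AA skin were therefore favoured in advance.

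Against healthy skin, 5 members were higher in 8w off Tx skin (S100a3, Crnn, S100a7a, Sprr1a and S100a16) and 4 lower (S100a4, S100a10, Flg2 and Lce1m), while 16.9% of all genes were higher and 15.7% lower. S100a4 (log2 fold change -1.48 ± 0.20, adjusted p = 2.3e-05) and S100a10 (log2 fold change -0.58 ± 0.09, adjusted p = 8.9e-05) did not overlap between the groups, as 8.98% of all genes. The value of S100a16 was 0.41, adjusted p = 0.046, and it was not called without healthy library F (0.35, adjusted p = 0.1). Without healthy library B the counts were 18 higher and 4 lower, with 19.6% and 17.5% of all genes, and Sprr1b (4.29, adjusted p = 4.1e-05), Sprr2a3 (3.30, adjusted p = 0.0099) and Sprr2h (2.54, adjusted p = 0.00081) were among those added. Without 8w off Tx libraries A and E they were 5 higher and 9 lower, with 17% and 15.7% of all genes, and with Lce1a1, Lce1b, Lce1a2, Lce1l and Hrnr added to the lower ones.

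Against systemic JAK1i skin, 15 members were higher in 8w off Tx skin and 5 lower, while 19.4% of all genes were higher and 16.6% lower. The higher ones comprised 5 of 8 Sprr, 4 of 16 Lce, 5 of 12 S100a and 1 of 4 fused S100-type genes. Sprr2a3 (log2 fold change 5.25 ± 2.24, adjusted p = 0.007), Sprr1b (log2 fold change 4.17 ± 1.25, adjusted p = 0.0042), Sprr2h (log2 fold change 2.89 ± 0.92, adjusted p = 0.0075) and Lce1f (log2 fold change 1.88 ± 0.46, adjusted p = 0.0029) lay higher without overlap between libraries, and S100a4 (-0.94, adjusted p = 0.0011) and S100a10 (-0.41, adjusted p = 0.0016) lower without overlap. These were 6 of 42 members, as for 18% of all genes. S100a4, S100a10, S100a13, Lce1m and Flg2 were lower. Without 8w off Tx libraries A and E the counts were 10 and 7, with 21% and 16.8% of all genes. Sprr2g, Lce1f, Lce1g, Lce3c and S100a11 were then no longer called, and Lce1a2 (-0.69, adjusted p = 0.05) and Rptn (-1.09, adjusted p = 0.042) were lower. The fit shares its spread between groups, and without these libraries Lce1h (1.24, adjusted p = 0.033) and Hrnr (0.87, adjusted p = 0.021) were also called in AA against healthy skin, and S100a10 was not in systemic JAK1i against AA skin (0.22, adjusted p = 0.061).

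Neighbouring genes outside the rule and genes of the same pathway elsewhere were examined as lists. Of 9 tested neighbours in the complex, 6 were higher and 0 lower in AA than in healthy skin, and 6 lower in systemic JAK1i than in AA skin. Tchh (trichohyalin, log2 fold change 5.76) and Tchhl1 (5.12), which are fused S100-type genes of the hair follicle, and Prr9 (4.66) were among those that rose, while the cornified envelope gene Kprp gave -0.12 (adjusted p = 0.76). Of 40 tested genes for the cornified envelope and barrier outside the complex, 12 were higher and 6 lower in AA than in healthy skin, with a median of 0.15, and 18 were lower and 2 higher in systemic JAK1i than in AA skin. The transglutaminase gene Tgm3 rose (2.34), as did the protease gene Klk6 (3.73). Krt10, a keratin of the suprabasal layers, gave -0.11 (adjusted p = 0.75), and Krt77 was lower (-0.63).

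Of 25 regulators of late differentiation, 10 were higher and 5 lower in AA than in healthy skin, and 13 lower and 3 higher in systemic JAK1i than in AA skin. The aryl hydrocarbon receptor gene Ahr was lower in AA than in healthy skin (log2 fold change -0.85), and Trp63, the master regulator of stratified epithelia, gave -0.08 (adjusted p = 0.53). Other cell types also moved. Of 7 basal keratinocyte genes 5 were lower and 1 higher in AA than in healthy skin, of 6 suprabasal genes 2 lower and 1 higher, of 7 CD8 T cell genes 4 higher, of 8 macrophage genes 3 higher, of 7 sebocyte genes 4 lower and 1 higher, of 7 adipocyte genes 7 lower, of 6 fibroblast genes 2 lower and of 11 muscle genes 0. Their part in the members' results was not tested.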

How the data were processed

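RNA of about 50 mg of dorsal skin was sequenced from total RNA libraries depleted of ribosomal RNA (the sample descriptions say polyA), without fragmentation because the RNA was of low integrity. According to the submitters' processing notes and the study's methods, the authors aligned reads with HISAT2 2.0.1 to mm10 (GRCm38) and deposited counts per gene from featureCounts 1.4.4, together with a table of TPM that the authors computed. The annotation release, strand setting and treatment of reads with several matches were not given in the sources used here. Columns that match no sample, 6 in each file, were not used.

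Counts were tested with edgeR 4.0.16 (quasi-likelihood test, TMM, R 4.3.3) on the 16248 genes kept by filterByExpr (minimum count 10), in 1 fit of 4 groups, with Benjamini-Hochberg adjustment over all of them and calls at an adjusted p below 0.05. Fold changes carry standard errors. The labels number the libraries of a group by letter without naming animals, so p-values measure only the spread between these libraries. Ratios of few counts carry exact 95% intervals, which cover counting error only, as does the floor of 3 counts over a group. Gene symbols were paired with 37607 of 39017 identifiers. Alternatives were DESeq2 1.42.0, limma 3.58.1, other scalings and filters, single libraries left out and a replicate block. The test was checked on simulated counts with known changes.

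Named by rule were, within each subfamily, the 4 members highest in mean CPM and the 3 with the smallest adjusted p, with fold changes only for other called members, and in each further list the 2 genes of smallest adjusted p in AA against healthy skin and the 2 of highest CPM. The members and lists were chosen with earlier results of these data known. A gene that the naming rule picks is not reported here.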

Additional observations from a re-analysis of the deposited data

Results flagged for a closer look

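In each group of 6 libraries, the highest or lowest library of each named member was marked when its gap to the nearest other library, divided by the range of the group, exceeded Dixon's 95% critical value. For independent, normally distributed values chance gives this in about 1 in 20 groups. CPM of related genes need not be such values, so that rate is not a yardstick here. The mark was met in 21 of 96 groups. Of these, 13 were the high values of healthy library B, at 175 CPM for Sprr1a, 52.0 for Sprr4, 26.1 for Sprr2a3, 39.9 for Sprr1b, 6.83 for Sprr2h, 187 for Lce1a1, 144 for Lce1c, 1.58 for Lce3d, 5.60 for Lce3c, 29.1 for Lce1f, 943 for Hrnr, 1156 for Lor and 182 for Ivl. Stress keratinocyte genes summed to 1588 CPM in this library, the highest of the healthy group, and its suprabasal keratinocyte sum, 10533 CPM, was also the highest. Their part in these values was not tested.

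Healthy library F stood above its group for S100a3, at 10.8 CPM, and for Crnn, at 13.2 CPM, and it had the highest hair shaft sum of the healthy libraries, 145 CPM. Sprr4 was set apart in every group, by healthy library B, AA library D at 303 CPM, systemic JAK1i library A at 51.8 CPM and 8w off Tx library B at 125 CPM. The remaining values were Sprr1b at 2.64 CPM in systemic JAK1i library F, S100a14 at 203 CPM in AA library A, the lowest of its group, and Rptn at 108 CPM in systemic JAK1i library A.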

How the results depend on the processing

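The alternatives were other tools, scalings and filters and the omission of libraries. In AA against healthy skin and in systemic JAK1i against AA skin the counts of called members ran from 24 to 32 and from 29 to 33 when single libraries were left out. With all genes kept they were 35 and 44, with DESeq2 33 and 42, and with TPM that were not centred 25 and 30, the last as 9 higher and 21 lower in place of 4 and 28. In systemic JAK1i against healthy skin 0 members were called, and 4 with DESeq2, 2 with limma-voom, 1 with centred TPM at either pseudocount (0.1 or 1), 2 with TPM that were not centred, and 0 to 1 with single libraries left out. In 8w off Tx against AA skin 3 were called, and 1 with only the compared groups in the fit, 9 with limma-voom, 6 with centred TPM at a pseudocount of 1, 25 with TPM that were not centred, and 1 to 7 with single libraries left out (7 without healthy library B). In 8w off Tx against healthy skin 9 were called, 5 higher and 4 lower, and 16 (10 and 6) with limma-voom. There the direction of the majority turned with upper-quartile scaling (9, as 4 and 5), without healthy libraries A and E (7, as 3 and 4), without 8w off Tx libraries A and E (14, as 5 and 9), with centred TPM at 0.1 (12, as 5 and 7) or 1 (14, as 6 and 8) and with TPM that were not centred (21, as 3 and 18). Single libraries left out gave 8 to 22 (22 without healthy library B), and without 8w off Tx library B the majority also turned (9, as 4 and 5). In 8w off Tx against systemic JAK1i skin, TPM that were not centred gave 25 (4 higher and 21 lower) in place of 20, and single omissions 16 to 26. TPM without centring shifted the median of all genes by -0.80 in 8w off Tx against healthy and by -1.16 in 8w off Tx against systemic JAK1i, and by 0.65 in systemic JAK1i against AA skin. On that scale the sign turned, in 8w off Tx against systemic JAK1i skin, for Lce1a1 (-1.25), Lce1c (-1.14), S100a14 (-0.85), S100a16 (-0.61), Hrnr (-1.07), Lor (-0.95) and Ivl (-0.91), in 8w off Tx against healthy skin for S100a14 (-0.68), S100a16 (-0.42) and Ivl (-0.81), and in systemic JAK1i against AA skin for Lce1a2 (0.51). Where no cause follows from the construction of an alternative, the cause was not tested. Letters did not pair the libraries (correlations of same-lettered libraries from -0.237 to 0.414), and a fit with the letter as replicate block called 29, 31, 0, 2, 9 and 19 members in place of 27, 32, 0, 3, 9 and 20. Low counts limit chiefly the Sprr2 and Lce3 genes, and the filter left out 15 of the 57 members, of which 2 had no counts. For Sprr2a2 the low level holds for counts only, as AA libraries averaged 8.14 CPM but 735 TPM.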
